A study of Mus musculus with 27 samples.

Results

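Cxcl12, Cobl and Nkx6-3 are 3 autosomal genes of the 53801 in the count table, and all 3 were among the 18363 genes that passed the filter on low counts. They were picked on these data: each was chosen by an earlier look at the same libraries because its level, or its response to doxycycline with auxin, differed between 2 lines of mouse embryonic stem cells. Their line differences are therefore given below as descriptions with no test. Cxcl12 (ENSMUSG00000061353) lies on chromosome 6 at 117168535 to 117181367, plus strand. Cobl (ENSMUSG00000020173) lies on chromosome 11 at 12236608 to 12464960, minus strand, and Nkx6-3 (ENSMUSG00000063672) on chromosome 8 at 23153269 to 23158948, plus strand. Positions are those of the GENCODE M21 gene bodies in GRCm38, the assembly also called mm10.

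CXCL12 is a secreted chemokine that binds the receptor CXCR4 and the scavenger receptor ACKR3, and it is known for guiding migrating cells and for keeping blood stem cells in the bone marrow. Cobl encodes Cordon-bleu, a protein that starts new actin filaments and is known from neurons, where it shapes branching, and from the early embryo. Nkx6-3 encodes a homeodomain transcription factor of the NK family, known for its part in forming hormone-secreting cells of the stomach.

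The data were RNA-seq of TX1072, a female embryonic stem cell line from a BL/6J by CAST-EiJ cross, in which doxycycline switches on Xist from the BL/6J X (Xist RNA spreads over that chromosome and represses its genes). All cells carried SPEN, a repressor that binds Xist RNA, fused to a degron through which auxin removes the protein. The BglG-GFP-SPOC line (SPOC line) made BglG, a bacterial RNA-binding protein, joined to GFP and to the SPOC domain of SPEN, and the BglG-GFP line (GFP line) made the same fusion without that domain. Each line was sampled untreated, after 24 h in doxycycline at 1 ug/mL (Dox), and after 12 h in auxin followed by 24 h in both drugs (Dox+Auxin), always in serum medium with LIF and the inhibitors called 2i. Each treatment had 5 SPOC and 4 GFP libraries, 27 in all. The design text speaks of 4 biological replicates, and nothing in the labels says how the replicate cultures were kept apart. Each construct stands for 1 line by the labels, so the SPOC domain cannot be told apart from anything else that differs between the lines. Auxin was not given alone in any group, so what it does by itself cannot be told apart from SPEN loss or from Xist induction in the Dox+Auxin cells.

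Totals ran from 28936459 to 45489094 counts a library. Xist lay between 1.03 and 1.69 CPM in 4 of the 5 untreated SPOC libraries, between 308 and 458 CPM in SPOC Dox and between 290 and 415 CPM in SPOC Dox+Auxin libraries (CPM, the count scaled to the library's size by the TMM method). In the GFP line it lay between 5.43 and 7.83 CPM untreated, between 747 and 918 CPM with Dox and between 383 and 630 CPM with Dox+Auxin. The library labelled SPOC untreated replicate 2 held 177.8 CPM of Xist. Leaving it out changed no call of the 3 genes, and values without it stand beside the line differences and the Dox results below. Spen RNA averaged 1052 ± 114 CPM in SPOC Dox+Auxin cells and 343 ± 11.4 CPM in SPOC untreated cells (SD, n = 5 each). It averaged 861 ± 223 CPM in GFP Dox+Auxin cells and 174 ± 12.1 CPM in GFP untreated cells (SD, n = 4 each). Protein was not measured, so these RNA counts do not check the depletion. The embryonic stem cell markers summed to between 4863 and 5734 CPM in every library. Of the 8 fibroblast or stroma markers, 4 (Col3a1, Dcn, Lum and Postn) averaged under 1 CPM, while Thy1 (11.75 to 18.99 CPM) and Col1a1 (7.83 to 14.8 CPM) were detected in every library. Of the 6 gastric markers 5 averaged under 1 CPM, among them Muc5ac and Atp4a, and Pgc, the gene of a stomach protease precursor, was at 27.3 to 56.7 CPM in every library. Under Dox+Auxin, where 24.6% of all genes passed between the lines, 4 of the 8 stem cell markers tested were higher in the SPOC line. Of the 5 neural markers tested 2 were higher, and of the 7 primitive endoderm markers tested 1 was higher and 1 lower. The part of these markers in the results was not tested.

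The start regions of Cxcl12 and Cobl are shown because both genes differed between the lines in the Dox+Auxin state, and to show how unlike their promoters are. Each run is the 250 bases before an annotated start, read 5′ to 3′ on the gene's strand from RefSeq (GRCm38.p6). Capitals mark GGGCGG on either strand (CCGCCC where it lies on the other strand), the core of the GC box, and TGGGAA, a core bound by the Notch pathway factor RBPJ. Cobl is shown at both of its RefSeq starts, and the table used here had no entry for Nkx6-3.
Cxcl12, chr6:117168285-117168534, plus strand: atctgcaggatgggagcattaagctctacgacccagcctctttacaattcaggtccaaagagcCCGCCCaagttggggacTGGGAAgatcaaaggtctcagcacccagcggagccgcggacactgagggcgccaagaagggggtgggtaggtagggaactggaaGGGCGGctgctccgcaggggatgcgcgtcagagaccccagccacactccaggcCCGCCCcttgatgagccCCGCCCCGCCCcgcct
Cobl, first start, chr11:12464961-12465210, minus strand: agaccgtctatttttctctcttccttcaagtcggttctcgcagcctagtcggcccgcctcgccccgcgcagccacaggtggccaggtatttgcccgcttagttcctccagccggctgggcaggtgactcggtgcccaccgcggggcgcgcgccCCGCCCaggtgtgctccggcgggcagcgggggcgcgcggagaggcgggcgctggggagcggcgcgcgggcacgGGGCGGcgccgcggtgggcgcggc
Cobl, second start, chr11:12412141-12412390, minus strand: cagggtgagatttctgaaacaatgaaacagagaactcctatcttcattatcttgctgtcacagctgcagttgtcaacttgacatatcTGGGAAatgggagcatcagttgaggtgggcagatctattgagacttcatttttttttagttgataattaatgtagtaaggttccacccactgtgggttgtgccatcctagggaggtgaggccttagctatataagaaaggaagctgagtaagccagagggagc

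The Cxcl12 run was 64.4% G and C and held 14 CpG pairs. It contained GGGCGG 5 times, the nearest at -11 and -16 from the start with a shared base, and TGGGAA once at -170. The first Cobl run was 75.2% G and C with 36 CpG pairs and 2 matches of GGGCGG, at -24 and -97. The second Cobl run was 43.2% G and C with 0 CpG pairs and 1 match of TGGGAA at -163. The median over all 32851 promoters of that length was 52.4% G and C, so the first Cobl start stood above it and the second below it. GGGCGG was found in 32.7% of those promoters and TGGGAA in 21.6%. TATAAA (in 12.4% of all promoters), CCAAT (33.9%), GCGTG, the core of the aryl hydrocarbon receptor site (28.2%), and CACGTG, an E-box (6.02%), had no match in any of the 3 runs. A match is a description of the letters, and binding was not measured. The counts are per gene and do not separate the 2 Cobl starts.

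Cxcl12, the chemokine gene, was a low gene in 5 of the 6 groups and stood apart in the GFP line under Dox+Auxin. Its SPOC libraries had 1.09, 1.42, 1.495, 1.23 and 1.16 CPM untreated, at 0.446, 1.19, 0.551, 0.497 and 0.911 CPM with Dox, and at 1.57, 0.958, 0.830, 0.761 and 0.403 CPM with Dox+Auxin. In the GFP line it was at 1.05, 1.07, 0.776 and 0.685 CPM untreated, at 0.651, 0.904, 0.472 and 0.511 CPM with Dox, and at 3.88, 4.33, 2.69 and 2.499 CPM with Dox+Auxin. The lowest GFP Dox+Auxin library lay above the highest library of every other group. In the order of group means, GFP Dox+Auxin came first with 3.35 ± 0.892 CPM (SD, n = 4) and SPOC untreated second with 1.28 ± 0.173 CPM (SD, n = 5). SPOC Dox+Auxin (0.904 ± 0.425), GFP untreated (0.894 ± 0.193), SPOC Dox (0.720 ± 0.322) and GFP Dox (0.635 ± 0.196) followed, and each of these overlapped the next in range.

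Between the lines, edgeR passed 11.6% of all 18363 genes tested without treatment, 10.7% with Dox and 24.6% with Dox+Auxin at an adjusted p under 0.05, and it passed 2.4% (441 genes) for a difference in the Dox+Auxin response. The untreated count was 1035 genes without GFP untreated replicate 2, against 2122. The count for the response moved with the fit: it was 207 to 865 genes with 1 library left out (lowest without GFP untreated replicate 4, highest without GFP Dox+Auxin replicate 4), 211 with only the groups compared and 830 with DESeq2. Replicate numbers paired the untreated and Dox+Auxin libraries of each line (correlations of 0.182 to 0.639 in the SPOC line and 0.36 to 0.609 in the GFP line). With them as a block the count was 2006 genes, or 10.9%. The block spanned all 3 groups of a line. It thus also joined Dox with Dox+Auxin libraries, with correlations down to -0.045 in the SPOC line and 0.023 in the GFP line. The 3 genes were picked on these contrasts, so nothing is read from their place among the genes called. Expressed as a fold, Cxcl12 was 3.67-fold lower in the SPOC line than in the GFP line under Dox+Auxin (log2 difference -1.88, SE 0.25). The same difference was 0.51 (SE 0.28) untreated and 0.18 (SE 0.33) with Dox, each less than 2 times its own error. Dox+Auxin against untreated gave 1.89 (SE 0.26) in the GFP line and -0.49 (SE 0.27) in the SPOC line, a difference between the lines of -2.39 (SE 0.37). Leaving out SPOC untreated replicate 2 gave -0.45 in the SPOC line and a difference of -2.34. Against Dox, the Dox+Auxin level was 5.16-fold in the GFP line (log2 2.37, SE 0.28) and 1.24-fold in the SPOC line (log2 0.31, SE 0.29). The GFP Dox+Auxin libraries themselves fell into a higher pair (3.88 and 4.33 CPM) and a lower pair (2.69 and 2.499 CPM). The counts behind Cxcl12 were small, from 13 to 152 reads a library, so single libraries outside GFP Dox+Auxin carry wide counting error. In bulk RNA, more cells that make Cxcl12 and more Cxcl12 RNA per cell cannot be told apart.

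Cobl, the actin nucleator gene, was moderately abundant and followed a graded pattern across both lines. In the SPOC line it was at 93.2, 115.6, 103.3, 95.2 and 104.4 CPM untreated, at 136.3, 134.7, 149.6, 133.5 and 140.0 CPM with Dox, and at 67.2, 69.7, 88.5, 80.3 and 82.3 CPM with Dox+Auxin. In the GFP line it was at 98.9, 96.5, 96.2 and 106.9 CPM untreated, at 124.6, 128.7, 125.3 and 128.2 CPM with Dox, and at 38.9, 36.0, 34.7 and 43.3 CPM with Dox+Auxin. In both lines every Dox library was above, and every Dox+Auxin library below, every untreated library of that line. The group means ran in the order SPOC Dox (138.8 ± 6.50), GFP Dox (126.7 ± 2.05), SPOC untreated (102.3 ± 8.88), GFP untreated (99.6 ± 5.004), SPOC Dox+Auxin (77.6 ± 8.93) and GFP Dox+Auxin (38.2 ± 3.804 CPM, SD, n = 5 SPOC and 4 GFP libraries). Of these neighbours in the order, only SPOC untreated and GFP untreated overlapped.

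Cobl was thus 2.03-fold higher in the SPOC line than in the GFP line under Dox+Auxin (log2 difference 1.02, SE 0.07), while the lines were 0.04 apart untreated (SE 0.07) and 0.13 apart with Dox (SE 0.07). Dox+Auxin against untreated gave -0.40 (SE 0.07) in the SPOC line and -1.38 (SE 0.08) in the GFP line, a difference of 0.98 (SE 0.10). The SPOC value was -0.35 and the difference 1.03 without SPOC untreated replicate 2. Against Dox, Cobl was 1.79-fold lower with Dox+Auxin in the SPOC line and 3.31-fold lower in the GFP line. Cobl had 1115 to 5411 reads a library, so its values carry the least counting error of the 3 genes.

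Nkx6-3, the gastric transcription factor gene, differed between the lines in all 3 states. In the SPOC line it was at 1.02, 1.28, 1.22, 1.35 and 0.744 CPM untreated, at 1.13, 1.14, 1.22, 1.16 and 1.09 CPM with Dox, and at 0.610, 0.846, 0.916, 0.790 and 0.557 CPM with Dox+Auxin. In the GFP line it was at 2.34, 2.47, 2.12 and 1.88 CPM untreated, at 1.81, 2.74, 1.89 and 1.92 CPM with Dox, and at 0.765, 1.26, 1.57 and 1.31 CPM with Dox+Auxin. Untreated and with Dox the 2 lines did not overlap, and with Dox+Auxin 1 GFP library, at 0.765 CPM, lay among the SPOC libraries. The order of means was GFP untreated (2.20 ± 0.256), GFP Dox (2.09 ± 0.436), GFP Dox+Auxin (1.23 ± 0.335), SPOC Dox (1.15 ± 0.0460), SPOC untreated (1.12 ± 0.245) and SPOC Dox+Auxin (0.744 ± 0.154 CPM, SD, n = 4 GFP and 5 SPOC libraries). In that order only GFP Dox and GFP Dox+Auxin did not overlap.

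The SPOC line held 1.96-fold less Nkx6-3 untreated (log2 difference -0.97, SE 0.17), 1.83-fold less with Dox (-0.87, SE 0.18) and 1.63-fold less with Dox+Auxin (-0.70, SE 0.20). Its Dox+Auxin response was -0.59 (SE 0.20) in the SPOC line and -0.85 (SE 0.18) in the GFP line, a difference of 0.26 (SE 0.27). The SPOC response was -0.54 and the difference 0.32 (SE 0.28) without SPOC untreated replicate 2. Nkx6-3 had 18 to 115 reads a library. Without SPOC untreated replicate 2 the untreated difference between the lines was 0.47 for Cxcl12, -0.01 for Cobl and -1.02 for Nkx6-3.

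**Figure D1:**
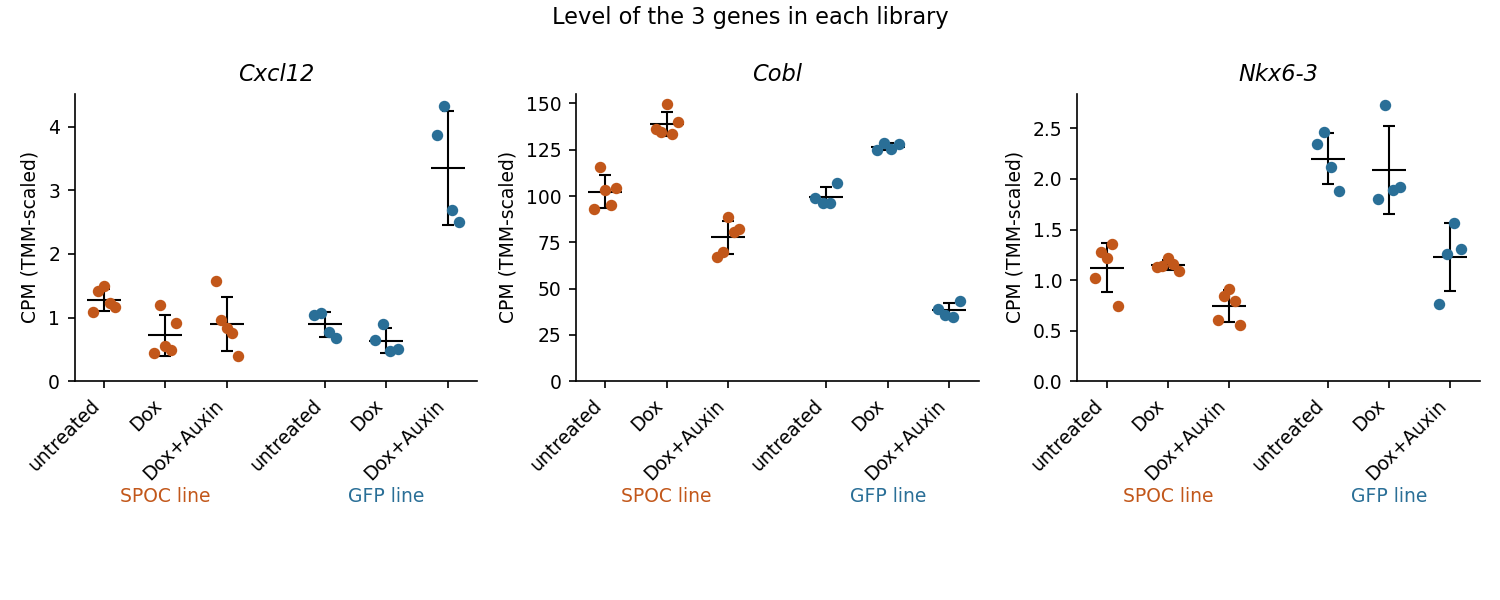
Level of each gene in every library (vertical axis, TMM-scaled CPM; each panel has its own scale), with the 3 SPOC groups left of the 3 GFP groups; points are libraries and bars the mean ± SD. The GFP Dox+Auxin libraries stand above all others for Cxcl12 (2.499 to 4.33 CPM) and below all others for Cobl (34.7 to 43.3 CPM), and Nkx6-3 is lower in the SPOC line in each state.

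On the deposited RPKM scale, whose gene lengths were not checked, the 3 genes differed widely in level. On the authors' RPKM scale, untreated SPOC cells had 434 ± 38.1 for Cobl, 17.3 ± 3.79 for Nkx6-3 and 5.41 ± 0.730 for Cxcl12 (SD, n = 5). Untreated GFP cells had 424 ± 21.6, 34.1 ± 3.93 and 3.79 ± 0.811 for the same genes (SD, n = 4). Cobl led in every group. Cxcl12 stayed below Nkx6-3 in every group mean, including GFP Dox+Auxin, where Cxcl12 was at 14.2 ± 3.75 and Nkx6-3 at 18.9 ± 5.15 RPKM (SD, n = 4) and the ranges overlapped. These RPKM values are high for their counts: Cobl averaged 434 RPKM and 102.3 CPM in untreated SPOC cells. The RPKM of a library summed to between 9603135 and 10092177. They are not read as absolute levels, and the order of the genes depends on the lengths used.

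Dox against untreated was not part of what picked the genes, although it shares both its untreated and its Dox libraries with line contrasts that were. The values within 1 line are therefore not free of that choice. Of the 3, Cobl rose in both lines. It rose by 0.44 on the log2 scale in the SPOC line (SE 0.07, edgeR adjusted p = 2.6e-05) and by 0.35 in the GFP line (SE 0.07, edgeR adjusted p = 0.00086), 1.36-fold and 1.27-fold. Without SPOC untreated replicate 2 the SPOC value was 0.49 (edgeR adjusted p = 3.79e-06). Of all 18363 genes tested, 13.5% passed the threshold of 0.05 in the SPOC line and 20.9% in the GFP line, so a call was common. Over the mean of both lines, where 30.2% of genes passed, Cobl rose by 0.39 (SE 0.05, edgeR adjusted p = 5e-07), or by 0.42 without SPOC untreated replicate 2 (edgeR adjusted p = 8.64e-08).

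Cxcl12 fell with Dox over the mean of both lines, by 0.64 (SE 0.21, edgeR adjusted p = 0.022), and this call was lost without GFP untreated replicate 2 (edgeR adjusted p = 0.0531), without GFP Dox replicate 3 (0.0529) and with no filter on low counts (0.0595). Without SPOC untreated replicate 2 it was -0.62 (edgeR adjusted p = 0.0352). Within a line its value was -0.80 in the SPOC line (SE 0.28, edgeR adjusted p = 0.055) and -0.47 in the GFP line (SE 0.32, edgeR adjusted p = 0.33). With the replicate numbers as pairs, which the data bear out between the untreated and Dox groups of the SPOC line, the SPOC value was -0.81 (SE 0.24, edgeR adjusted p = 0.0145) and passed. That block also joined the Dox with the Dox+Auxin libraries, where not every pair bears it out. With no block and without SPOC untreated replicate 2 the SPOC value was -0.76 (edgeR adjusted p = 0.0963). Nkx6-3 passed in neither line: its value was 0.03 in the SPOC line (SE 0.18, edgeR adjusted p = 0.95) and -0.07 in the GFP line (SE 0.17, edgeR adjusted p = 0.83). Without SPOC untreated replicate 2 the SPOC value of Nkx6-3 was 0.08 (edgeR adjusted p = 0.856).

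Dox+Auxin against Dox, averaged over both lines, gives the mean of the lines' values once auxin was added. The Dox+Auxin libraries were among those that picked the genes, so no p is given. Cobl was lower by 1.28 (SE 0.05), Nkx6-3 lower by 0.70 (SE 0.13) and Cxcl12 higher by 1.34 (SE 0.20). For Cxcl12 this average joins unlike values, 0.31 in the SPOC line and 2.37 in the GFP line. For Nkx6-3 the values were -0.62 (SE 0.19) in the SPOC line and -0.79 (SE 0.18) in the GFP line.

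**Figure D2:**
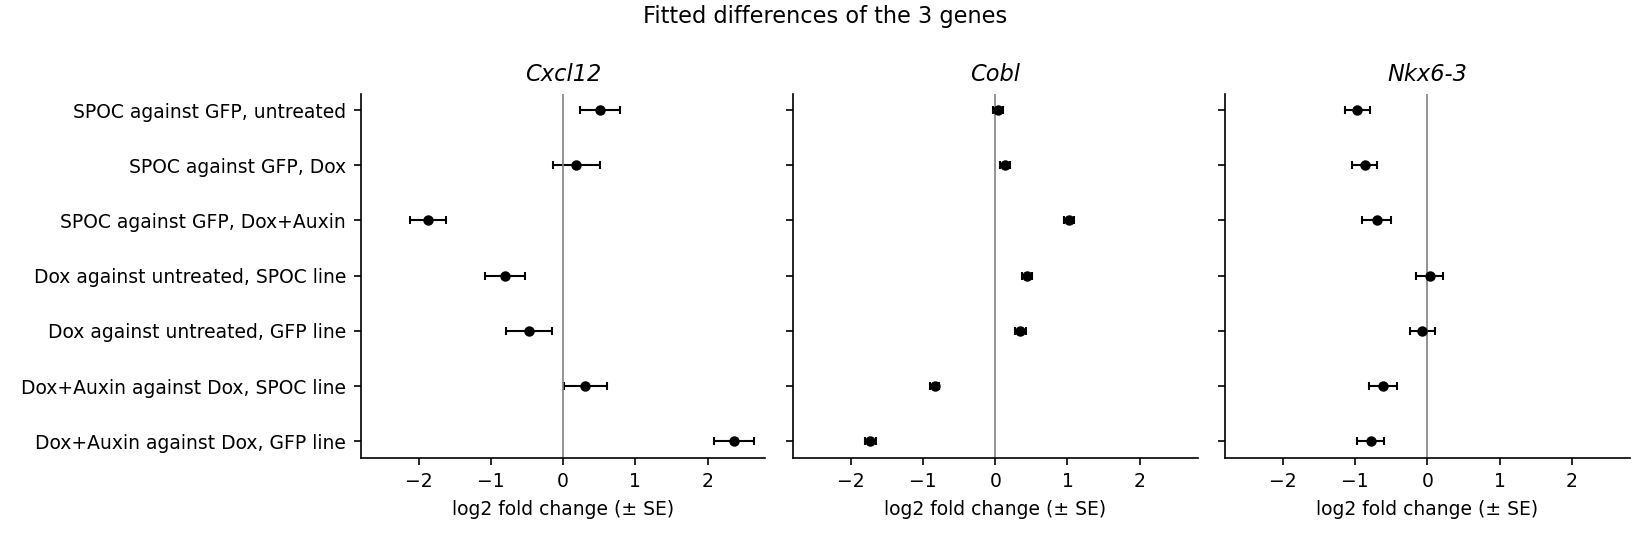
Fitted log2 fold change of each gene (horizontal axis) in 7 contrasts (rows), with bars of 1 standard error on either side. Under Dox+Auxin the SPOC line is lower by 1.88 for Cxcl12 and higher by 1.02 for Cobl, while the 3 line differences of Nkx6-3 run from -0.97 to -0.70.

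Reads over strain differences between BL/6J and CAST-EiJ gave the share of each gene's RNA from the BL/6J copy. The names of the allelic columns did not match the totals: 0 of 27 allelic pairs lay within the total of the same name, and each was assigned to the 1 total it never exceeded in any gene. A pair exceeded the total of its own name in 1303 to 5292 genes, and the next best total in at least 1303. By this rule 12 of the 27 pairs belong to the other line than their name says, so each allelic value below depends on the assignment. Over all libraries the BL/6J share was 60.5% for Cobl (44117 reads), 51.4% for Nkx6-3 (1038 reads) and 40.5% for Cxcl12 (565 reads). The median autosomal gene had 50.4%, and the middle of the distribution, from the 10th to the 90th percentile, ran from 34.5% to 64.9%. All 3 genes were therefore expressed from both copies within the usual range.

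For Cobl the share was 59.97, 58.6, 60.4, 59.6 and 61.3% in SPOC untreated, 60.3, 57.3, 59.0, 58.1 and 60.2% in SPOC Dox, and 60.9, 59.2, 61.4, 63.3 and 62.4% in SPOC Dox+Auxin libraries. It was 60.4, 59.3, 60.9 and 59.8% in GFP untreated, 61.6, 61.3, 60.7 and 61.5% in GFP Dox, and 64.7, 65.5, 67.1 and 64.1% in GFP Dox+Auxin libraries. The GFP Dox+Auxin libraries thus had a higher BL/6J share than every other library. Averaged over both lines, Dox+Auxin against Dox gave 0.20 for Cobl on the log2 scale of BL/6J over CAST reads (SE 0.03). It is a description, with no test, because the Dox+Auxin libraries picked the gene. Of the 12287 autosomal genes tested, 10.3% passed in that comparison. The value rests on the assignment: with the allelic columns taken by their own names it was 0.034.

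Both Cobl copies were lower with Dox+Auxin, and in the GFP line the CAST copy more so (change of the log2 allelic ratio 0.32, SE 0.05). In the SPOC line that change against untreated was 0.09 (SE 0.046), and the shares of the libraries overlapped. In the SPOC line the BL/6J copy was at 22.8 CPM with Dox+Auxin and 29.6 CPM untreated (23.0% lower), and the CAST copy at 14.2 and 19.8 CPM (28.1% lower). In the GFP line the BL/6J copy was at 12.0 CPM with Dox+Auxin and 28.3 CPM untreated (57.5% lower), and the CAST copy at 6.38 and 18.8 CPM (66.0% lower). The line difference in the log2 allelic ratio was -0.24 (SE 0.05) under Dox+Auxin, -0.14 (SE 0.05) with Dox and -0.01 (SE 0.05) untreated, given as a description because the same contrasts picked the gene.

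The Cxcl12 copies moved together as far as the few reads show. In GFP Dox+Auxin the BL/6J copy was at 3.29-fold and the CAST copy at 3.56-fold their untreated levels, with BL/6J shares of 38.9, 43.8, 34.0 and 42.2% from 45 to 72 reads a library. In the other groups a library had 5 to 24 allelic reads, and its share is uncertain: 1 BL/6J read of 5 allows a share from 3.62 to 62.5% (Wilson interval at 95%, counting error only). Nkx6-3 had 14 to 96 allelic reads a library and group mean shares between 43.0% and 56.8%. Averaged over both lines, Dox+Auxin against Dox gave -0.67 for Nkx6-3 (SE 0.27) and -0.04 for Cxcl12 (SE 0.31), also as a description. By the columns' own names the Nkx6-3 value was 0.44, of the opposite sign.

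With Dox against untreated no allelic change was detectable for the 3 genes. Exact two-sided permutation tests of the share, 6 in all, gave the lowest p for Cobl in the GFP line, with 61.3 ± 0.413% with Dox and 60.1 ± 0.662% untreated (SD, n = 4 each; exact permutation p = 0.0571, adjusted 0.343, where 0.0286 is the smallest p the design allows). With that smallest p a GFP test could not pass by itself after adjustment over the 6, so the GFP permutation tests cannot show that the share was unchanged. In the SPOC line Cobl had 59.0 ± 1.30% with Dox and 59.95 ± 1.01% untreated (SD, n = 5 each; exact permutation p = 0.23, adjusted 0.683, smallest possible 0.00794). limma passed none of the 3 genes in the SPOC line, where 0.187% of autosomal genes passed, in the GFP line (0.439%) or over the mean of both (1.36%).

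**Figure D3:**
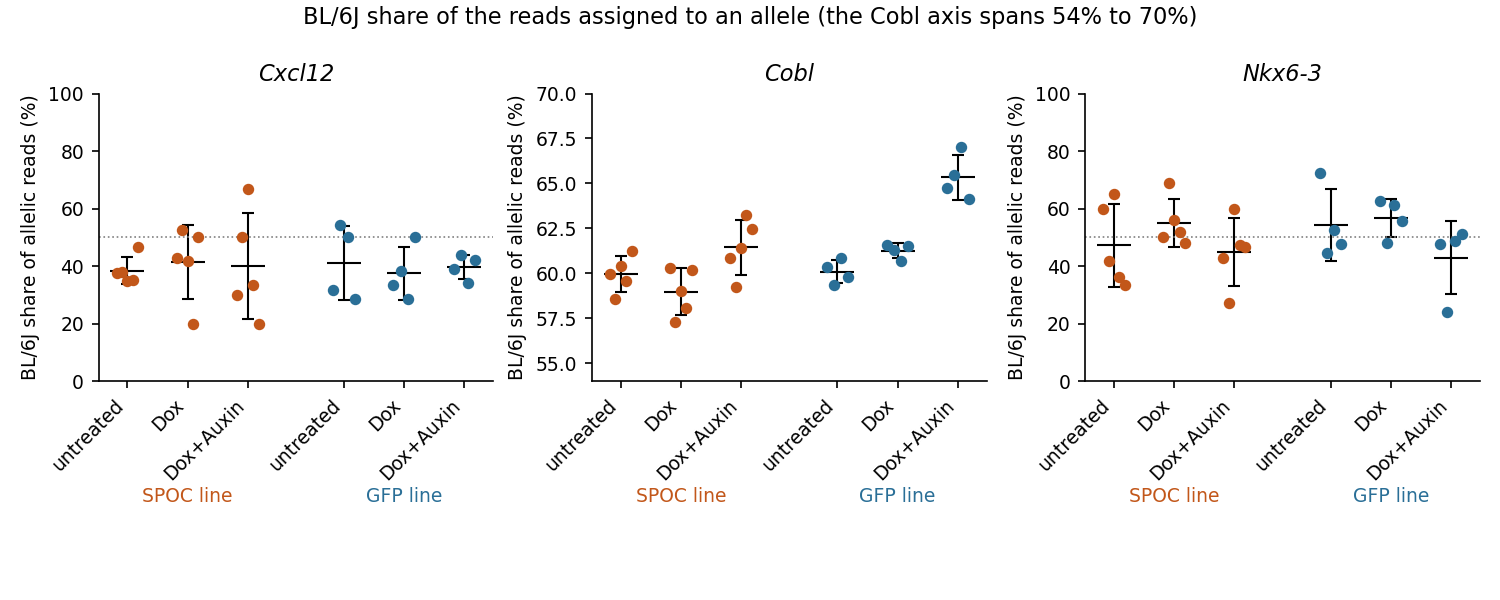
BL/6J share of each gene's allelic reads (vertical axis, percent; the Cobl panel spans a narrower range than the others) in every library, SPOC groups left of GFP groups; points are libraries, bars the mean ± SD and the dotted line 50%, drawn where the axis reaches it. Cobl libraries are tightly grouped with GFP Dox+Auxin highest at 64.1 to 67.1%, while the low read numbers of Cxcl12 and Nkx6-3 spread their libraries widely.

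Genes near the 3 loci were not used to pick them and were tested between the lines, to be read against the shares given above (24.6% of all genes under Dox+Auxin). Within 500 kb of Cobl, 5 of 12 annotated genes were tested, and 4 of the 5 were higher in the SPOC line under Dox+Auxin. They were Ddc, the enzyme that makes dopamine and serotonin (0.41, SE 0.06, edgeR adjusted p = 5.1e-06), Ikzf1, a lymphoid transcription factor (0.39, SE 0.12, edgeR adjusted p = 0.017), Fignl1, a DNA repair ATPase (0.12, SE 0.03, edgeR adjusted p = 0.0051), and 1700042O10Rik (0.83, SE 0.22, edgeR adjusted p = 0.0067). 1700042O10Rik is an antisense gene that lies within the bounds of Ddc, on the other strand. The strand setting of the counts is not stated, so these genes may share reads and their calls may not be separate. The Ikzf1 call was lost without GFP Dox+Auxin replicate 1 (edgeR adjusted p = 0.0643). Grb10, an imprinted growth regulator and the nearest of the 5 at 197.9 kb, was at 0.00 (SE 0.08) under Dox+Auxin and lower in the SPOC line untreated (-0.29, SE 0.08, edgeR adjusted p = 0.017), a call lost without GFP untreated replicate 2 (0.0831).

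The median over these 5 genes was 0.39 under Dox+Auxin, against 0.00 over all genes, and Cobl's own difference of 1.02 exceeded each of them. With Dox, Ikzf1 alone of the 5 was higher in the SPOC line (0.50, SE 0.12, edgeR adjusted p = 0.0082). Ddc was the 1 gene of the 5 whose Dox+Auxin response differed between the lines (0.31, SE 0.08, edgeR interaction adjusted p = 0.034, against 2.4% of all genes), and leaving out 7 of the 27 libraries one at a time lost that call. With the replicate block, where 10.9% of all genes passed, 3 of the 5 did: Ddc (adjusted p = 0.000428), Grb10 (0.28, adjusted p = 0.0117) and Fignl1 (0.12, adjusted p = 0.0435). Ddc was at 48.5 CPM in SPOC and 36.4 CPM in GFP Dox+Auxin cells, and at 41.99 CPM in SPOC and 39.1 CPM in GFP untreated cells.

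Within 500 kb of Nkx6-3, 12 of 24 annotated genes were tested, and neither of its closest neighbours passed between the lines in any state. Ank1, an ankyrin whose gene lies 2.77 kb away, was at 0.292 CPM in SPOC and 0.447 CPM in GFP Dox+Auxin cells (-0.61, SE 0.30, edgeR adjusted p = 0.14). Its values untreated (-0.40, SE 0.27) and with Dox (-0.51, SE 0.27) had the same sign, which is also that of Nkx6-3. Gpat4, a lipid synthesis enzyme at 12.3 kb, was at -0.08 (SE 0.03, edgeR adjusted p = 0.1). Sfrp1, a secreted Wnt inhibitor at 252.6 kb, was the 1 gene of the 12 that differed under Dox+Auxin: it was higher in the SPOC line by 0.64 (SE 0.07, edgeR adjusted p = 1.5e-07), the opposite direction to Nkx6-3. Its Dox+Auxin response differed between the lines by 0.57 (SE 0.09, edgeR interaction adjusted p = 0.0015). With the replicate block Zmat4, a zinc finger gene, passed as well (0.72, adjusted p = 0.0115). Ikbkb, a kinase of NF-kB signalling, was higher in the SPOC line untreated (0.26, SE 0.07, edgeR adjusted p = 0.011) and with Dox (0.24, SE 0.07, edgeR adjusted p = 0.02), also opposite to Nkx6-3. The untreated call was lost without GFP untreated replicate 2 (edgeR adjusted p = 0.0549), and the Dox call without any 1 of 3 libraries, SPOC Dox replicate 1 and GFP Dox replicates 1 and 2.

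Within 500 kb of Cxcl12, 1 of 14 annotated genes was tested. Rassf4, a Ras association protein at 494.6 kb, was at 8.24 CPM in SPOC and 8.45 CPM in GFP Dox+Auxin cells (-0.04, SE 0.14, edgeR adjusted p = 0.89) and passed in no state. Its BL/6J share was 27.8% in GFP Dox+Auxin and 41.1% in GFP untreated cells, a fall of the allelic ratio (-0.85, SE 0.16, limma adjusted p = 0.00024, where 4.06% of autosomal genes passed). The share of Sfrp1 rose in that comparison, with 81.0% in Dox+Auxin and 77.7% in untreated GFP cells (0.29, SE 0.05, limma adjusted p = 0.00051). None of the 4 testable Cobl neighbours passed there. No tested gene overlapped any of the 3. The chromosomes as a whole lay near 0: under Dox+Auxin the median log2 difference was 0.01 on chromosome 6, 0.01 on chromosome 11 and 0.00 on chromosome 8.

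**Figure D4:**
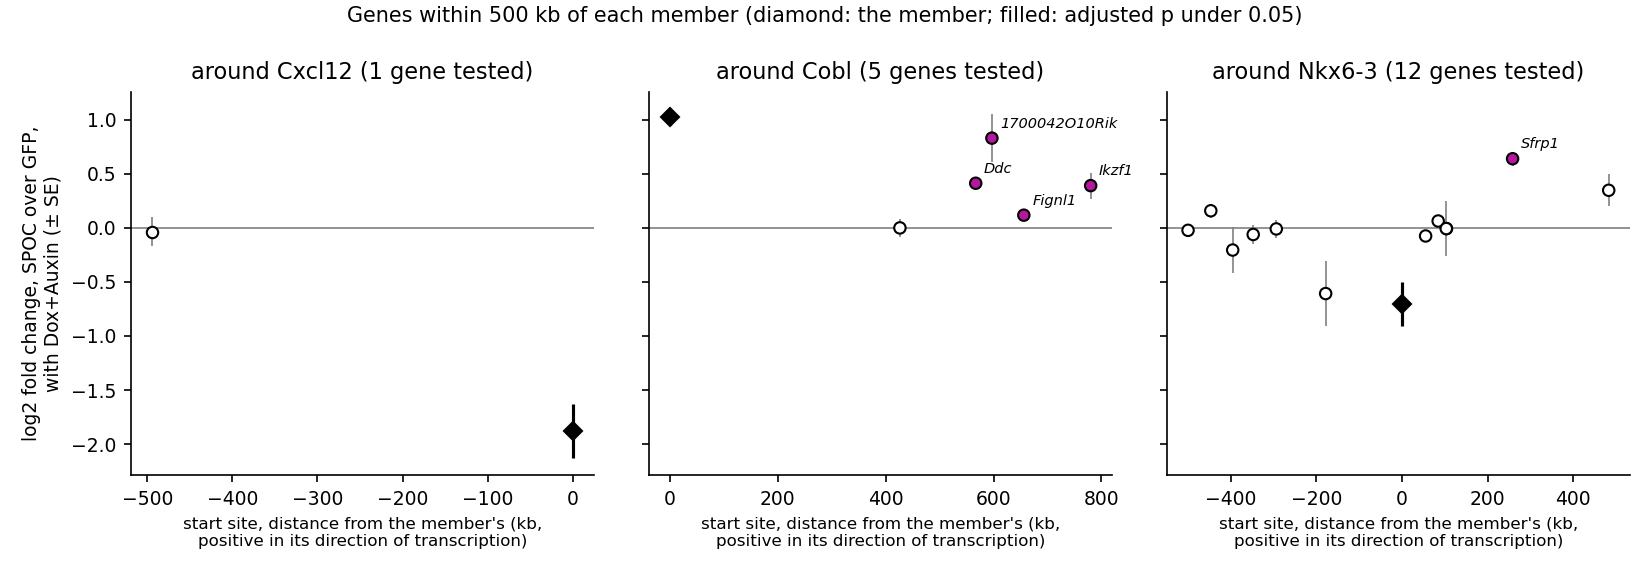
Log2 difference between the SPOC and GFP lines under Dox+Auxin (vertical axis) of every tested gene within 500 kb, by distance between start sites in kb (horizontal axis, positive in the gene's direction of transcription), with bars of 1 standard error; diamonds mark Cxcl12, Cobl and Nkx6-3 and filled circles an adjusted p under 0.05. Of the 5 genes around Cobl 4 lie above 0 (0.12 to 0.83), with 1700042O10Rik lying within Ddc. Around Nkx6-3 only Sfrp1, at 0.64, passed the test.

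The CXCL12 axis, a list of 22 receptors, other chemokines and signalling parts of which 20 were tested, showed no common direction. Under Dox+Auxin 3 were higher and 6 lower in the SPOC line, 9 of 20 where 24.6% of all genes passed, with a median of -0.05 against 0.00 over all genes. CXCR4, the receptor for CXCL12, had a Cxcr4 level of 2.13 CPM in both lines under Dox+Auxin, and its difference was 0.00 (SE 0.15, edgeR adjusted p = 1). ACKR3, the scavenger receptor, was lower at the RNA level in the SPOC line (Ackr3, 12.4 and 16.4 CPM in SPOC and GFP cells, -0.40, SE 0.11, edgeR adjusted p = 0.0099). The other chemokines that differed went the same way as Cxcl12. Cxcl16, a membrane-bound chemokine, was at 2.35 CPM in SPOC and 4.62 CPM in GFP cells (-0.97, SE 0.15, edgeR adjusted p = 2.2e-05). Cxcl10, an interferon-induced chemokine, was at 0.245 CPM in SPOC and 0.578 CPM in GFP cells (-1.23, SE 0.23, edgeR adjusted p = 0.00019). The 3 that were higher in the SPOC line were led by Hif1a, the oxygen-sensing factor known to induce Cxcl12, at 0.23 (SE 0.05, edgeR adjusted p = 0.0013), followed by Gnai3 (0.13) and Cd164 (0.10).

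Mif, another ligand of CXCR4, was the 1 gene of the 20 whose Dox+Auxin response differed between the lines (-0.25, SE 0.06, edgeR interaction adjusted p = 0.031), a call lost on leaving out any 1 of 7 libraries. With the replicate block 4 of the 20 passed, Mif (adjusted p = 0.00184), Dpp4 (0.52, adjusted p = 0.000701), Cxcl16 (-0.70, adjusted p = 0.00436) and Hif1a (0.15, adjusted p = 0.00962). With Dox+Auxin against Dox over the mean of both lines, where 53.2% of all genes passed, 7 of the 20 rose and 6 fell. Cxcl10 rose by 0.93, Cxcl5 by 0.72 and Cxcr4 by 0.53, and Cd74, a receptor for MIF, fell by 0.90, Dpp4, a protease that cuts CXCL12, by 0.86 and Mmp2, a matrix protease, by 0.52. Markers of fibroblasts and stroma summed to 24.8 to 32.1 CPM in SPOC and 27.1 to 29.1 CPM in GFP Dox+Auxin libraries, and to 31.0 to 35.8 CPM in SPOC and 37.5 to 39.0 CPM in GFP untreated libraries. None of the 4 that were tested passed between the lines under Dox+Auxin, 1 was lower in the SPOC line untreated, and the other 4 averaged under 1 CPM. The sum was lower in each GFP Dox+Auxin library than in each GFP untreated library, and its part in the Cxcl12 level was not tested.

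Of 34 genes of actin nucleation and of the Cordon-bleu complex, 31 were tested, and under Dox+Auxin 6 were higher and 6 lower in the SPOC line, 12 of 31 where 24.6% of all genes passed, with a median of 0.00 against 0.00 over all genes. The formins, which build unbranched actin filaments, went both ways: of 9 tested, Fmn1, Fmn2, Diaph3 and Fmnl2 (0.18, SE 0.05, edgeR adjusted p = 0.0095) were higher in the SPOC line, Fmnl3 was lower (-0.21, SE 0.05, edgeR adjusted p = 0.0053) and the other 4 did not pass. Fmn1 was at 7.41 CPM in SPOC and 4.66 CPM in GFP cells (0.67, SE 0.11, edgeR adjusted p = 5.2e-05), Fmn2 at 28.9 and 18.8 CPM (0.62, SE 0.07, edgeR adjusted p = 1.5e-07) and Diaph3 at 60.3 and 52.1 CPM (0.21, SE 0.04, edgeR adjusted p = 9.9e-05). The 3 most lowered were Pacsin1 (-0.39, SE 0.10, edgeR adjusted p = 0.004), which binds Cordon-bleu at membranes, the profilin gene Pfn2 (-0.37, SE 0.08, edgeR adjusted p = 0.00049) and Pacsin3 (-0.26, SE 0.07, edgeR adjusted p = 0.0066).

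Several of these differences were there without treatment, where Cobl itself was 0.04 apart. Fmn1 (0.51, SE 0.11, edgeR adjusted p = 0.0026) and Fmn2 (0.28, SE 0.07, edgeR adjusted p = 0.0075) were higher in untreated SPOC cells, and Pacsin3 lower (-0.33, SE 0.07, edgeR adjusted p = 0.0028). The Dox+Auxin response differed between the lines for Diaph3 (0.25, SE 0.05, edgeR interaction adjusted p = 0.0073) and for Fmn2 (0.34, SE 0.09, edgeR interaction adjusted p = 0.045), the second lost on leaving out any 1 of 16 libraries. With the replicate block Diaph3 (adjusted p = 0.0009), Fmn2 (adjusted p = 0.00731) and Fmnl2 (0.15, adjusted p = 0.0327) were among those that passed. With Dox+Auxin against Dox over the mean of both lines, where 53.2% of all genes passed, 10 of the 31 rose and 14 fell. Prmt2, a methyltransferase that acts on Cordon-bleu, rose by 0.85, Was, an activator of branched actin, by 0.66 and Pfn2 by 0.61, while Diaph3 fell by 0.67, Fmn2 by 0.47 and Diaph2 by 0.35. The list was not limited to autosomes: Was and Diaph2 are genes of the X chromosome, and the part of Xist in their values was not tested. With Dox against untreated, over the mean of both lines, Was fell by 0.70 and Diaph2 by 0.51. In that contrast 8 of the 31 rose and 5 fell, where 30.2% of all genes passed. Was averaged 15.1, 8.16 and 14.9 CPM in GFP untreated, Dox and Dox+Auxin cells.

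Few relatives of Nkx6-3 were expressed. Of 24 NK homeobox and gastric endocrine genes, 9 were tested, and Nkx6-1 and the hormone genes Sst and Gast were among those that did not pass the filter. Nkx6-2, the other close relative tested, passed in no line contrast. Under Dox+Auxin 1 of the 9 was higher and 2 were lower in the SPOC line, where 24.6% of all genes passed. Nkx1-2 was higher (20.7 and 12.5 CPM in SPOC and GFP cells, 0.72, SE 0.16, edgeR adjusted p = 0.002). Nkx2-9 was lower (1.08 and 2.10 CPM, -0.95, SE 0.20, edgeR adjusted p = 0.00072), as was Nkx2-4 (0.665 and 0.978 CPM, -0.56, SE 0.19, edgeR adjusted p = 0.033), a call lost on leaving out any 1 of 6 libraries. The Nkx2-9 response differed between the lines (-1.19, SE 0.31, edgeR interaction adjusted p = 0.034), a call lost on leaving out any 1 of 8 libraries. With the replicate block, where 10.9% of all genes passed, Nkx2-9 (adjusted p = 0.0024) and Nkx1-2 (0.27, adjusted p = 0.0271) passed.

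Without treatment, the state in which the Nkx6-3 difference was largest, 2 of the 9 were higher in the SPOC line and 1 was lower, where 11.6% of all genes passed. Neurog3, which starts endocrine differentiation, was at 0.236 CPM in SPOC and 0.467 CPM in GFP cells (-0.98, SE 0.26, edgeR adjusted p = 0.015). Its difference was larger with Dox (-1.58, SE 0.25, edgeR adjusted p = 0.0001). Pax6 was at 0.687 and 0.317 CPM (1.11, SE 0.30, edgeR adjusted p = 0.017) and Isl1 at 0.308 and 0.154 CPM (1.00, SE 0.32, edgeR adjusted p = 0.041), calls lost on leaving out any 1 of 3 and of 7 libraries. SPOC untreated replicate 2, the library high in Xist, was among the 7 for Isl1. Both genes went the opposite way to Nkx6-3. With Dox+Auxin against Dox over the mean of both lines, where 53.2% of all genes passed, 2 of the 9 rose and 1 fell. Pax6 rose by 1.89 and Nkx2-9 by 0.72, and Neurog3 fell by 2.36.

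The genes whose log2 CPM followed each gene most closely over the 27 libraries were taken by Pearson's r among 12362 named genes. The libraries share treatments and lines, so r is a description. Cobl had the closest match of the 3, Foxd3, a transcription factor of pluripotent and neural crest cells, with r = 0.991. Foxd3 was at 50.9, 62.1 and 37.1 CPM in untreated, Dox and Dox+Auxin SPOC cells and at 47.3, 58.6 and 17.9 CPM in the same states of the GFP line. Mymx, a muscle fusion protein (r = 0.974), and Qk, an RNA-binding protein (r = 0.966), came next.

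Cxcl12 was matched by Rdh11, a retinol dehydrogenase (r = 0.891), Prom1, a membrane glycoprotein (0.887), and Dhrs7, another dehydrogenase (0.883). Rdh11 averaged 58.3 CPM in SPOC and 82.2 CPM in GFP Dox+Auxin cells, and Prom1 6.54 and 11.7 CPM. Nkx6-3 was matched by Fam13c (0.891), Litaf (0.888) and Lgals1, a secreted lectin (0.885). Fam13c averaged 4.62 CPM in SPOC and 7.36 CPM in GFP untreated cells, and Lgals1 34.4 and 44.0 CPM. Among the 3 genes themselves, Cxcl12 and Cobl ran opposite ways (r = -0.80), and Nkx6-3 followed neither (-0.12 with Cxcl12 and 0.26 with Cobl).

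**Figure D5:**
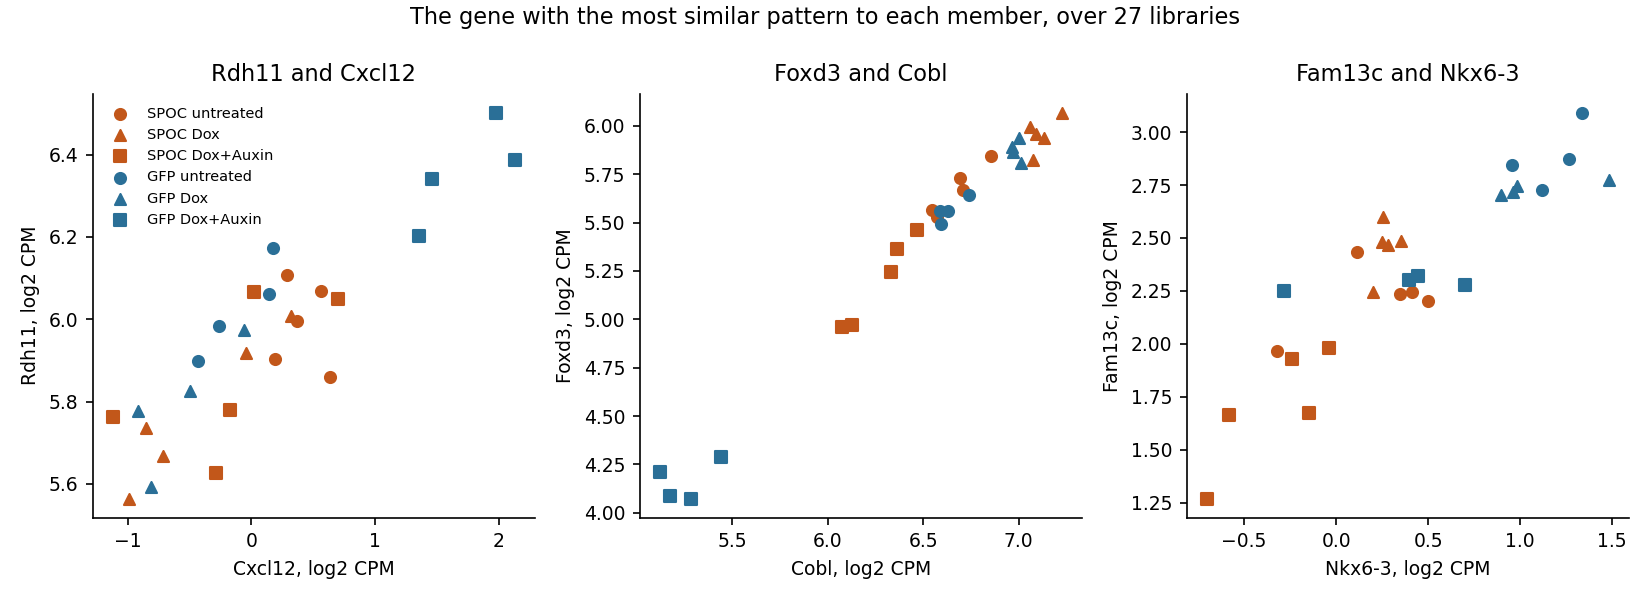
Log2 CPM of the closest match by Pearson's r (vertical axis) against that of each gene (horizontal axis), 1 point a library, coloured by line and shaped by treatment. The Cobl and Foxd3 values lie near a line (r = 0.991), and those of Cxcl12 with Rdh11 and of Nkx6-3 with Fam13c scatter more (0.891 each).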

How the data were processed

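RNA-seq of 27 libraries was analysed. The authors deposited 1 table with raw counts per gene, RPKM values and allelic counts for BL/6J and CAST. Per the submitters' processing notes the build was mm10, with STAR 2.5.3a, featureCounts, DESeq2 1.18.1, Picard 2.18.2 and Trim Galore 0.4.4 named as tools. The strand setting, the annotation and how alleles were assigned are not stated there, so reads shared by overlapping genes are uncertain. The deposited RPKM values follow from the counts through 1 factor for each library and 1 length for each gene (100.0% of values of 13993 genes within 1%) and were used only to compare genes within a library group.

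Counts were filtered (filterByExpr), scaled by TMM and fitted in edgeR 4.0.16 (R 4.3.3, robust quasi-likelihood, 1 term per group, all libraries together), with Benjamini-Hochberg adjustment over 18363 genes and a threshold of 0.05. Allelic reads (34.1 to 35.0% of totals) were tested as log2((BL/6J + 1)/(CAST + 1)) in limma 3.58.1 over 12287 autosomal genes with a mean of at least 20 allelic reads. The members and gene lists were chosen with earlier results of these data known. Allelic contrasts between the lines, and Dox+Auxin against untreated or Dox, had been planned as tests of the members. They are given without a p because the same contrasts picked the genes. The allelic mean of both lines and the allelic interaction were added after seeing the data.

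Named genes were the 3 members, Xist and Spen, genes of the lists and neighbours within 500 kb (the 3 largest rises and falls where over 6 passed), and 3 closest genes per member by r at a mean of at least 1 CPM. Cxcr4, Mif, Nkx6-2, Ank1, Gpat4, Pgc, Thy1, Col1a1, the formins and the untreated and blocked values of list genes were singled out after their values were seen. Replicate numbers were taken to pair libraries where every correlation of their deviations was over 0.1: untreated with Dox in the SPOC line (0.156 to 0.688), and untreated with Dox+Auxin in the SPOC line (0.182 to 0.639) and the GFP line (0.36 to 0.609). The replicate block within a line covered all 3 groups, including pairings that missed this mark. No 2 libraries of a group agreed within sampling noise (lowest chi-square per gene 1.76). p-values measure the spread between these libraries, and intervals cover counting error only. The fits were tested on simulated data. Alternatives used DESeq2 1.42.0 size factors and its Wald test, no filter, only the groups compared, a replicate block, each library left out, other windows, read minimums and pseudocounts, and allelic columns by name.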

Additional observations from a re-analysis of the deposited data

Results flagged for a closer look

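Among 48 groups of libraries examined for the 3 genes, Xist and Spen, 4 held a library far from the others. Xist was at 177.8 CPM in SPOC untreated replicate 2, against 1.03 to 1.69 CPM in the other 4 libraries. Nkx6-3 was at 2.74 CPM in GFP Dox replicate 2, against 1.81 to 1.92 CPM in the other 3. The BL/6J share of Nkx6-3 was 24.1% in GFP Dox+Auxin replicate 2, against 47.6 to 51.3% in the others, from 29 reads. The BL/6J share of Cxcl12 was 46.7% in SPOC untreated replicate 5, against 34.8 to 38.1% in the others, from 15 reads.

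The response to Dox+Auxin differed between the lines, by the edgeR interaction test, for 6 genes of the lists and neighbourhoods, where 2.4% of all genes passed. Tested were 20, 31 and 9 genes of the CXCL12, actin and NK lists, and 1, 5 and 12 neighbours of Cxcl12, Cobl and Nkx6-3. The lists were chosen with earlier results of these data known. The difference, SPOC minus GFP on the log2 scale, was 0.57 for Sfrp1 (adjusted p = 0.0015), 0.31 for Ddc (0.034), 0.25 for Diaph3 (0.0073), 0.34 for Fmn2 (0.045), -0.25 for Mif (0.031) and -1.19 for Nkx2-9 (0.034). Leaving out single libraries lost the call for Ddc and Mif (7 libraries each), Nkx2-9 (8) and Fmn2 (16), and for neither Sfrp1 nor Diaph3. With the replicate block all 6 passed, with adjusted p between 2.59e-05 and 0.00731, and so did 10.9% of all genes.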

How the results depend on the processing

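No called result reversed under any alternative. Of the 371 values of the main results under alternatives other than leaving out a library, 337 kept their direction, their side of the threshold or their size. For Cxcl12 with Dox, the SPOC value passed with a replicate block (-0.81, adjusted p = 0.0145), with only the groups compared (-0.80, 0.036) and with DESeq2 (-0.81, 0.0251), and the mean of both lines did not pass without the filter (-0.64, 0.0595). Genes called for Dox in the SPOC line were 4145 with the block, against 2478. For the interaction they were 2006 with the block, 211 with only the groups compared and 830 with DESeq2, against 441. The block changed no other call of the 3 genes. The replicate numbers also correlated in 24 of 27 pairs within a line and 19 of 36 between lines.

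With allelic columns by their own names, genes called were 0, 1 and 3 between the lines untreated, with Dox and with Dox+Auxin (31, 27 and 112 as assigned). They were 3 and 0 for Dox in SPOC and GFP, 15 and 1 for Dox+Auxin against untreated in SPOC and GFP, and 0 and 1 over both lines for Dox against untreated and Dox+Auxin against Dox. Cobl was then at 0.047 (lines, untreated), -0.093 (lines, Dox+Auxin), 0.19 (Dox+Auxin against untreated, GFP), -0.14 (interaction) and 0.034 (Dox+Auxin against Dox), and Nkx6-3 at 0.50 (lines, untreated), 0.37 (Dox+Auxin against untreated, GFP), -0.60 (interaction) and 0.442 (Dox+Auxin against Dox). The minimum of 50 reads left Cxcl12 and Nkx6-3 out. In other windows, neighbours that differed under Dox+Auxin were 3 of 24 tested within 1000 kb of Cxcl12 and 0 of 1 within 250 kb of Cobl. Around Nkx6-3 they were 0 of 6 within 250 kb and 4 of 23 within 1000 kb, where 24.6% of all genes passed. With the block shared by both lines, 2 passed within 500 kb of Nkx6-3. By Spearman's rho the closest genes shared 0 for Cxcl12, 1 for Cobl and 1 for Nkx6-3.

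Leaving out 1 library at a time gave -1.07 to -0.68 for Cxcl12 with Dox in SPOC (adjusted p 0.0134 to 0.134; passed without SPOC Dox replicate 2, SPOC Dox+Auxin replicates 1 and 5 or GFP Dox+Auxin replicate 4) and -0.77 to -0.58 over both lines (0.00532 to 0.0531). Genes called between the lines ranged from 1035 to 2299 untreated, lowest without GFP untreated replicate 2, and from 1260 to 2087 with Dox, lowest without GFP Dox replicate 2. The interaction ranged from 207, without GFP untreated replicate 4, to 865, without GFP Dox+Auxin replicate 4. Allelic calls ranged from 17 to 34, 15 to 36 and 62 to 127 between the lines untreated, with Dox and with Dox+Auxin, and from 28 to 67 for Dox in GFP. Neighbours of Nkx6-3 under Dox+Auxin ranged from 1 to 3. The cause was not tested for any of these. Depth limits Cxcl12 and Nkx6-3, with at most 152 and 115 reads a library.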
